A study of Mus musculus with 4 samples.

Results

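The clustered histone genes encode the bulk histones that package newly copied DNA. They were chosen by symbol (H2ac, H2bc, H3c or H4c followed by a digit, and H1f1 to H1f6) among probe sets annotated to exactly 1 gene, with the probe set of highest mean kept per gene. This gave 27 of 19938 genes: 5 of the linker histone H1, 4 of H2A, 9 of H2B, 3 of H3 and 6 of H4. Their RNA was compared between leukemia stem cells of Hif1a-/- and of WT donor origin, 2 samples each, on 4 Affymetrix whole-transcript arrays. Every sample came from mice with a transplanted disease that models chronic myeloid leukemia: donor marrow, taken after 5-fluorouracil, is transduced with a retrovirus for BCR-ABL and green fluorescent protein and given to B6 recipients. The labels give the strain C57BL/6 (B6) and an age of 8 weeks for all samples. On day 14 after transplantation the cells were sorted as GFP+Lin-c-Kit+Sca-1+ marrow cells, so both genotypes carried BCR-ABL and had been selected through the same gate. The labels call the samples of a genotype biological replicates. They do not say how the Hif1a-/- donors were made, in which cells the gene was deleted, whether animals were pooled, or whether each sample came from another animal, and p-values cover only the variation among these 4 arrays.

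Core histones H2A, H2B, H3 and H4 form the octamer around which DNA is wound, and H1 binds the linker DNA between nucleosomes. Most genes of these clusters are transcribed in S phase, and their mRNAs end in a stem-loop bound by SLBP in place of a poly(A) tail. Reverse transcription here started from random hexamers, per the labels' protocols, and did not need a poly(A) tail. Genes of 1 core histone class are nearly identical in their coding parts, so a probe set named for 1 gene may still take up RNA of its copies. All core histone values below carry that uncertainty. Signal shared among the H1 genes was not tested.

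Hif1a itself read 11.25 and 11.39 in Hif1a-/- cells, against 11.34 and 11.50 in WT cells, on the log2 scale of the deposited values. The groups overlapped and differed by -0.09 (unadjusted limma p 0.502). Which exons were deleted is not stated in the labels, so this value checks the genotype labels weakly. Kit, which encodes the sorted receptor c-Kit, read 10.95 and 10.61 in Hif1a-/- cells and 10.32 and 11.07 in WT cells. Ly6a, the Sca-1 gene, had no single-gene probe set. Of the 7 lineage genes of the gate, 5 were measured, with differences from -0.22 to 0.18 between genotypes. The WT arrays stood far apart in the myeloid antigens among them: Ly6g read 11.74 and 11.64 in Hif1a-/- cells and 13.10 and 10.64 in WT cells, and Itgam 10.995 and 10.712 in Hif1a-/- cells and 11.884 and 10.272 in WT cells. In both, WT replicate 1 was the highest and WT replicate 2 the lowest array. Over all 19938 genes the median difference, Hif1a-/- minus WT, was 0.03, and the WT arrays stood farther apart from each other (median absolute difference 0.19) than the Hif1a-/- arrays did (0.11).

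Histone RNA differed little between the genotypes. None of the 27 genes passed limma's adjusted p of 0.05, as was true of all genes tested, 0% of which passed. At an unadjusted limma p under 0.05 the count was 0 of 27, beside 1.68% of all genes, and the smallest unadjusted p among the 27 was 0.131. The mean was higher in Hif1a-/- cells for 13 genes (48.1%, beside 61.4% of all genes) and lower for 14, and the median difference was -0.0013. The median absolute difference was 0.09 for the histone genes and also 0.09 over all genes.

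In 5 of the 27 histone genes the Hif1a-/- pair of arrays lay wholly above the WT pair, that is 18.5%, beside 15.7% of all genes. In 3 it lay wholly below, that is 11.1%, beside 9.05% of all genes. These shares lie near the background. The 95% interval of the difference stayed within a 2-fold change in either direction for 27 of 27 histone genes, beside 97.7% of all genes, and within a 1.41-fold change for 23 of 27, beside 69.2% of all genes. The WT arrays differed more from each other than the genotypes did for 19 of the 27 genes (70.4%), as for 75.5% of all genes. A difference between single arrays varies more than one between means of 2 arrays, so these shares compare unlike measures.

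**Figure D1:**
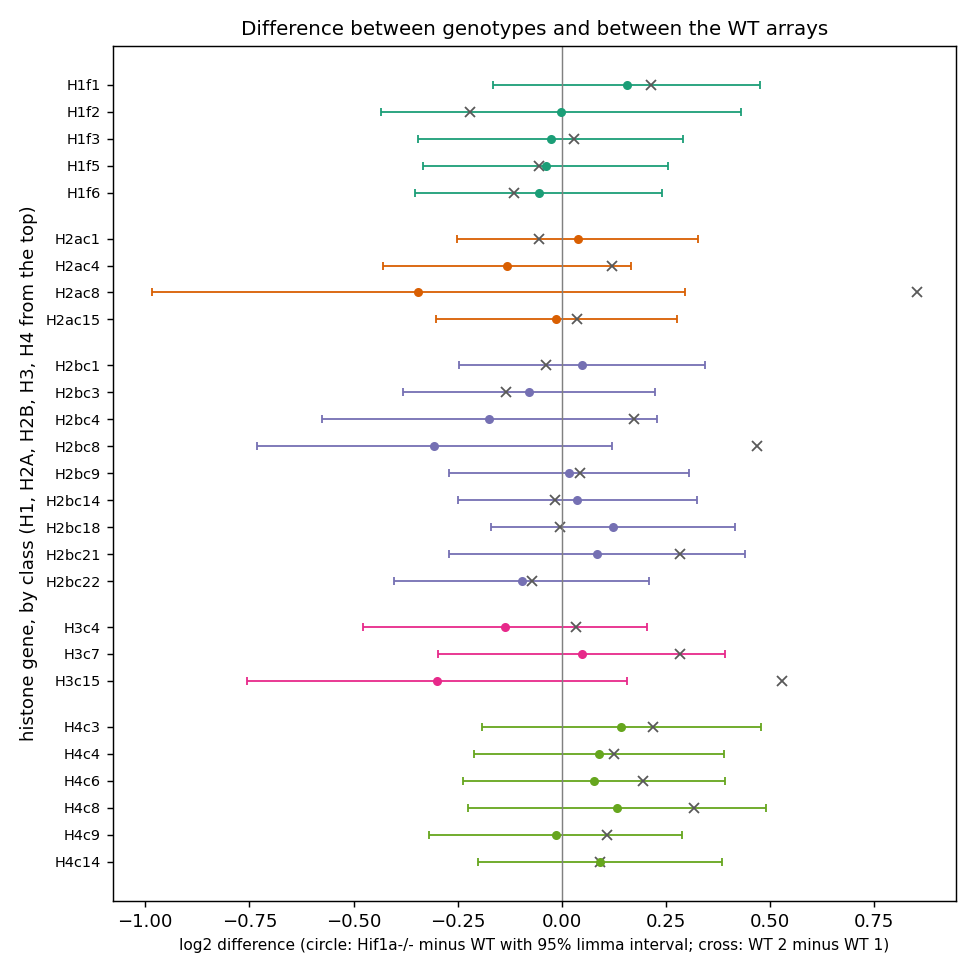
Hif1a-/- minus WT difference on the log2 scale (circles, with 95% limma intervals) for the 27 histone genes by class, and the difference WT replicate 2 minus WT replicate 1 (crosses). All 27 intervals include 0, and the crosses of H2ac8, H2bc8 and H3c15 lie farthest to the right, at 0.85, 0.47 and 0.53.

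Histone H4 pairs with H3 in the tetramer at the core of the nucleosome. Its means were higher in Hif1a-/- cells for 5 of 6 genes and lower for 1, where 61.4% of all genes were higher. The median difference was 0.09, against 0.03 over all genes. H4c3 read 12.00 and 12.14 in Hif1a-/- cells and 11.82 and 12.03 in WT cells, which is a difference of 0.14 ± 0.14 (SE, unadjusted limma p 0.344). H4c8 read 8.999 and 8.956 in Hif1a-/- cells and 8.686 and 9.003 in WT cells, a difference of 0.13. In both genes WT replicate 1 was the low array, while WT replicate 2 lay within or just above the range of the Hif1a-/- arrays.

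H4c4 read 14.310 and 14.262 in Hif1a-/- cells and 14.134 and 14.259 in WT cells. H4c14 read 13.33 on both Hif1a-/- arrays and 13.19 and 13.28 on the WT arrays. In these 2 genes the groups did not overlap, though barely so for H4c4, and the difference was 0.09 for each. H4c6 read 13.10 and 13.09 in Hif1a-/- cells and 12.92 and 13.12 in WT cells, and H4c9, the gene with the lower mean, read 9.68 and 9.58 in Hif1a-/- cells and 9.59 and 9.70 in WT cells. WT replicate 2 lay above WT replicate 1 in 6 of 6 H4 genes, and WT replicate 1 was the lowest of the 4 arrays in 5 of them, every one but H4c9. Without WT replicate 1 the H4 median difference was 0.0035, with 3 genes higher and 3 lower. Without WT replicate 2 it was 0.16, with 6 higher and 0 lower. H4c8 differed by -0.025 without WT replicate 1 and by 0.29 without WT replicate 2.

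The promoters shown are those of the 4 H4 genes, among 5 with a promoter in RefSeq's table, that held the letters GGTCCG. That of H4c8 lacked them and is not shown. Each sequence is the 120 bases before the gene's start in RefSeq's GRCm38.p6 table, 5′ to 3′ on the gene's own strand. Capitals mark GGTCCG, a part of the H4 promoter element that HINFP binds in human cells, and the TATA box letters TATAAA, which do not overlap. The windows are chr13:23698459-23698578 (minus strand) for H4c3, chr13:23581448-23581567 (plus strand) for H4c4, chr13:23551669-23551788 (minus strand) for H4c6 and chr13:22041363-22041482 (minus strand) for H4c9.
H4c3: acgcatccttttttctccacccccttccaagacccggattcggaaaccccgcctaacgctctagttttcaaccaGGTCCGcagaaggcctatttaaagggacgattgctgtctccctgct
H4c4: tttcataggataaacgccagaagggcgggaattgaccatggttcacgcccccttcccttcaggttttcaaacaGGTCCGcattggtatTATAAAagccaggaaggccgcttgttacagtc
H4c6: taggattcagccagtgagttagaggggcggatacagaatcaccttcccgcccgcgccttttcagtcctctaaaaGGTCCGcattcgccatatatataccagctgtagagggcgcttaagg
H4c9: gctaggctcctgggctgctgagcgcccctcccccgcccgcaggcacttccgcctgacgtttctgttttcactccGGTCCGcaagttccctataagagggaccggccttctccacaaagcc

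GGTCCG, searched on both strands, stood in 4 of the 5 H4 promoters in the table, H4c9 included and H4c8 not. It was present in 3.69% of all 32851 promoter windows of that length. TATAAA stood in 1 of the 5, that of H4c4, beside 6.34% of all windows. Any link between either motif and the array values was not tested.

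Histone H3, the partner of H4 and the carrier of many regulatory lysine marks, was represented by 3 single-gene probe sets. H3c4 read 8.54 and 8.82 in Hif1a-/- cells and 8.80 and 8.83 in WT cells, a difference of -0.14. H3c7 read 6.09 and 6.08 in Hif1a-/- cells and 5.90 and 6.18 in WT cells, a difference of 0.05. H3c15, of the smaller histone cluster once called Hist2, read 6.79 and 6.75 in Hif1a-/- cells and 6.81 and 7.33 in WT cells. The groups of H3c15 did not overlap, but WT replicate 1 lay close to the Hif1a-/- arrays and only WT replicate 2 stood apart. The difference for H3c15 was -0.30 ± 0.19 (SE, unadjusted limma p 0.162), and the H3 median difference was -0.14 (0.0014 without Hif1a-/- replicate 1).

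Histone H2A, which forms dimers with H2B, had a median difference of -0.07, with 1 gene higher and 3 lower in mean (0.0081 without WT replicate 2). H2ac8, once called Hist1h2ae, read 5.58 and 5.63 in Hif1a-/- cells and 5.52 and 6.38 in WT cells. The groups overlapped, since WT replicate 1 was the lowest and WT replicate 2 the highest of the 4 arrays. The difference was -0.34 ± 0.27 (SE, unadjusted limma p 0.240), the most negative of the 27 genes, and a difference of that size or larger was seen in 2.84% of all genes.

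H2ac4 read 11.86 and 11.83 in Hif1a-/- cells and 11.92 and 12.04 in WT cells. The Hif1a-/- pair lay wholly below the WT pair, with a difference of -0.13 (unadjusted limma p 0.328). H2ac15 read 13.31 and 13.34 in Hif1a-/- cells and 13.32 and 13.36 in WT cells, a difference of -0.01. The groups of H2ac15 overlapped.

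Histone H2B had 5 genes with a higher and 4 with a lower mean in Hif1a-/- cells. The median difference was 0.02, or -0.0083 with the array medians centred, and no direction can be given. H2bc8, once called Hist1h2bg, read 9.41 and 9.46 in Hif1a-/- cells and 9.50 and 9.97 in WT cells. The groups did not overlap, and WT replicate 2 stood apart from the other 3 arrays. The difference was -0.31 ± 0.18 (SE), with the smallest unadjusted limma p of the 27 genes, 0.131 (adjusted p 0.999).

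The other H2B genes differed less. H2bc18 read 11.07 and 10.98 in Hif1a-/- cells and 10.90 on both WT arrays, a difference of 0.12 with groups that did not overlap. H2bc14 read 12.95 and 12.96 in Hif1a-/- cells and 12.93 and 12.91 in WT cells, again without overlap but with a difference of only 0.04. H2bc22 read 7.67 and 7.52 in Hif1a-/- cells and 7.73 and 7.66 in WT cells, a difference of -0.10, and its groups overlapped, as did those of the remaining H2B genes. H2bc3 read 12.72 and 12.66 in Hif1a-/- cells and 12.84 and 12.70 in WT cells, a difference of -0.08. H2bc9 read 12.38 and 12.41 in Hif1a-/- cells and 12.36 and 12.40 in WT cells, a difference of 0.02. In H2bc14 and H2bc9 all 4 arrays lay close together.

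H2ac8 and H2bc8 are neighbours that are transcribed away from each other from a shared span of 179 bases. This span is shown because both genes, with H3c15, had the highest difference between the WT arrays among the 27. WT replicate 2 minus WT replicate 1 was 0.85 for H2ac8, 0.47 for H2bc8 and 0.53 for H3c15. Without WT replicate 1 the differences were -0.77 for H2ac8, -0.54 for H2bc8 and -0.56 for H3c15. That fit holds a lone WT array, assumed to vary like the Hif1a-/- arrays, and measures no spread among WT arrays. The 3 genes were also singled out by the difference between the WT arrays itself. Without WT replicate 2 the differences were 0.082 for H2ac8, -0.072 for H2bc8 and -0.035 for H3c15. The size of each thus rested on WT replicate 2. H2ac8 and H3c15 are dim: their mean values lay under 7.49, the 25th percentile of all genes, and both dropped out of the fits with a filter there or a floor.

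The span lies at chr13:23571221-23571399 in RefSeq's GRCm38.p6 table and is given 5′ to 3′ on the plus strand, with H2ac8 to the left and H2bc8 to the right. Capitals mark CCAAT or its complement ATTGG, the octamer ATTTGCAT, which the POU factor Oct-1 binds in H2B promoters, and TATAAA.
H2ac8-H2bc8: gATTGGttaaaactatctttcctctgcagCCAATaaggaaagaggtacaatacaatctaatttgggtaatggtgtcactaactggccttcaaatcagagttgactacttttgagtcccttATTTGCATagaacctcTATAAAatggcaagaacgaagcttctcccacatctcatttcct

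The marked motifs do not overlap. In windows of the same length before the start, ATTTGCAT on either strand stood in 5 of 7 H2B, 3 of 4 H2A and 0 of 12 other histone promoters in the table, beside 1.19% of all promoter windows. CCAAT on either strand stood in 19 of 23 histone promoters, beside 27.4% of all windows, and TATAAA in 12 of 23, beside 8.89%. The octamer of this span is counted for both H2ac8 and H2bc8. The windows of H2ac1 and H2bc1, genes 280 bases apart, also overlap. In the 120 bases before the start the octamer stood in 4 of 7 H2B and 0 of 4 H2A promoters, beside 0.791% of all windows. In the longer windows the other 6 octamer carriers were H2bc1, H2bc3, H2bc14, H2bc18, H2ac1 and H2ac4. Their WT replicate 2 minus WT replicate 1 ran from -0.13 (H2bc3) to 0.12 (H2ac4). Any link between the octamer and the array values was not tested.

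**Figure D2:**
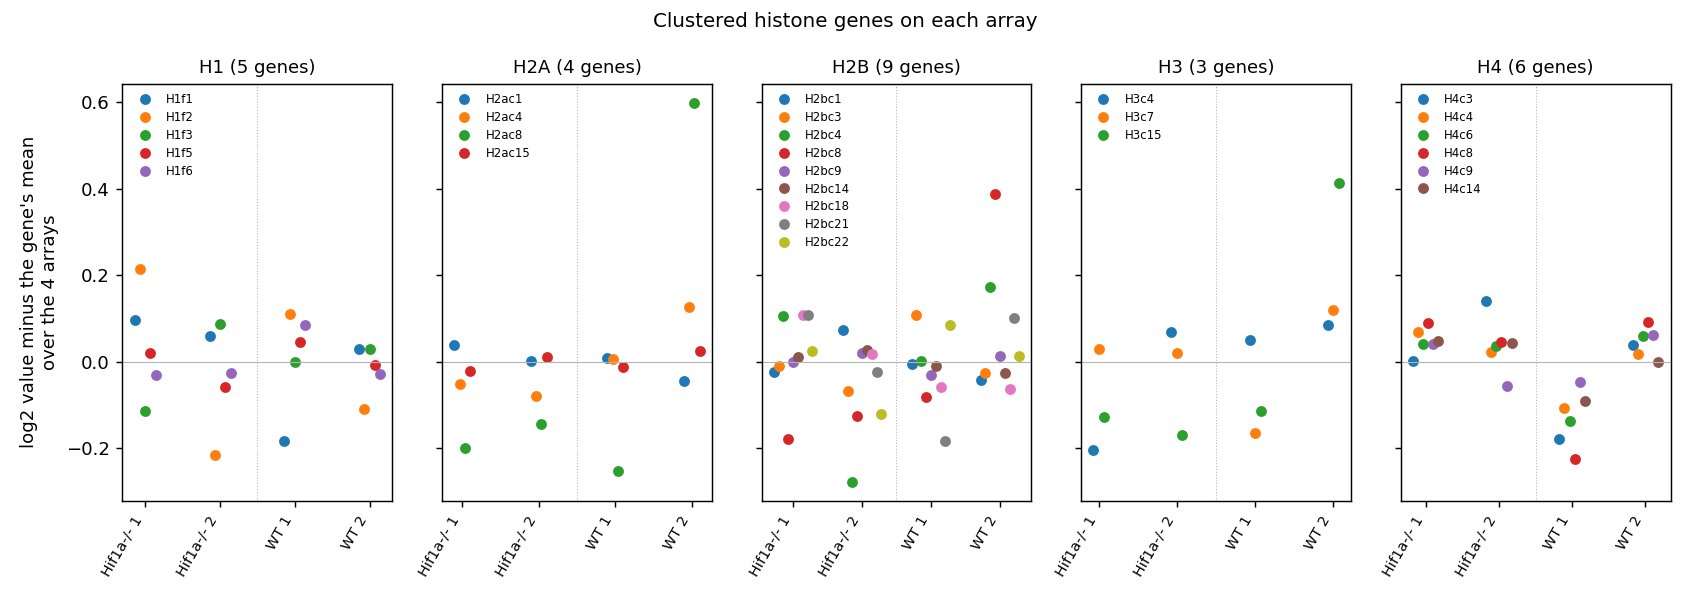
Log2 value of each histone gene on each array, minus the gene's mean over the 4 arrays, by class (points, 1 colour per gene within a class, Hif1a-/- arrays left of WT arrays). H2ac8, H2bc8 and H3c15 stand 0.60, 0.39 and 0.41 above their means on WT replicate 2, and the H4 genes lie below their means on WT replicate 1.

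Linker histone H1 compacts the chromatin fibre. The mean in Hif1a-/- cells was higher for 1 of its 5 genes and lower for 4, and the median difference was -0.03, or 0.011 after a second quantile normalization. H1f1, the variant H1.1, read 13.10 and 13.06 in Hif1a-/- cells and 12.82 and 13.03 in WT cells. The groups did not overlap, and the difference of 0.16 ± 0.13 (SE, unadjusted limma p 0.284), the most positive of the 27 genes, came mainly from the low value of WT replicate 1. Without that array it was 0.049.

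H1f2, the variant H1.2, read 11.65 and 11.22 in Hif1a-/- cells and 11.55 and 11.33 in WT cells, a difference of -0.0013. H1f3 read 7.33 and 7.54 in Hif1a-/- cells and 7.45 and 7.48 in WT cells, a difference of -0.03. H1f5 read 12.55 and 12.47 in Hif1a-/- cells and 12.57 and 12.52 in WT cells, a difference of -0.04. In these H1 genes the arrays of 1 genotype fell on either side of an array of the other.

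The clusters also hold genes of the male germ line, which here serve as genes with no known role in marrow. H1f6, the testis variant H1t, read 7.82 on both Hif1a-/- arrays and 7.93 and 7.82 on the WT arrays. H2ac1 read 10.57 and 10.53 in Hif1a-/- cells and 10.54 and 10.49 in WT cells, and its divergent neighbour H2bc1 read 10.58 and 10.68 in Hif1a-/- cells and 10.60 and 10.56 in WT cells. All 3 genes had overlapping groups and differences between -0.06 and 0.05. The values of H2ac1 and H2bc1 lay above 8.55, the median of all genes' mean values, and those of H1f6 lay below it. Each probe set has its own scale, so such ranks are rough. Whether the signal came from RNA of these genes was not tested.

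Some clustered histone genes are also known, from human cells, to give polyadenylated transcripts in cells that have left the cycle. Of 5 such genes listed, 4 were measured, and 0 had groups that did not overlap, beside 24.8% of all genes. So few genes allow no reading of that count. H2bc4 read 10.54 and 10.16 in Hif1a-/- cells and 10.44 and 10.61 in WT cells, a difference of -0.17 (unadjusted limma p 0.336). H2bc21 read 8.28 and 8.15 in Hif1a-/- cells and 7.99 and 8.27 in WT cells, a difference of 0.09. H1f2 differed by -0.0013, and H4f16, which lies outside the 27 genes, by 0.0058. H1f2 and H2bc4 were the 2 members with the largest distance between the Hif1a-/- arrays, replicate 2 minus replicate 1 being -0.43 and -0.38.

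A further 26 probe sets were annotated to several genes, at least 1 of them a clustered histone gene, and 24 of these named between 11 and 20 genes of nearly one class. They stand for the summed signal of the repeated coding parts and are not among the 27. The 24 sets read between 13.65 and 14.42 on all arrays, near the top of the scale, which ended at 14.71. Their differences ran from -0.0047 to 0.06, and the WT arrays differed by -0.05 to 0.05. The 5 H4 sets differed by 0.01 to 0.04, the 10 H3 sets by 0.01 to 0.04, the 7 H2B sets by -0.0047 to 0.01 and the 2 H2A sets, which also named H3c4, by 0.04 and 0.06. None of the 26 sets had an unadjusted limma p under 0.05. The sets share sequences, and 2 pairs of them were equal on all arrays within 0.001, so they are not separate measurements. Whether signal this high still follows RNA amount in proportion was not tested.

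Genes that make and process histone mRNA were measured as a list of 20, of which 14 were higher and 6 lower in mean in Hif1a-/- cells, where 61.4% of all genes were higher. The median difference was 0.07 (-0.044 without WT replicate 1). The median absolute difference was 0.08 between the genotype means and 0.26 between the single WT arrays, which are unlike measures. None of the 20 had an unadjusted limma p under 0.05. The spliceosomal and U7 protein gene Snrpb read 12.26 and 12.16 in Hif1a-/- cells and 11.92 and 12.14 in WT cells. Cstf2, a cleavage factor, differed by 0.19 and Zfp473, the zinc finger protein of the histone pre-mRNA complex, by 0.16. For these 3 genes, with the smallest p of the list, WT replicate 1 was the lowest array.

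Of 20 histone chaperone and import genes, 16 were higher and 4 lower in mean, where 61.4% of all genes were higher. The median difference was 0.08 (-0.064 without WT replicate 1), with no unadjusted limma p under 0.05. Mms22l, of the complex that binds new H4 at forks, differed by 0.21, Ipo4, the importin of H3 and H4, by 0.20, and Cdan1, a partner of the chaperone Asf1, by 0.16. Without WT replicate 1 the values were -0.03 for Mms22l and -0.09 for Ipo4. Of 9 replacement variants, whose genes lie outside the clusters and are not limited to S phase, 7 were higher and 2 lower in mean, with differences of 0.20 for H2aj, 0.25 for Macroh2a2 and 0.12 for Cenpa, the centromeric H3. Without WT replicate 1 the list had 5 higher and 4 lower and a median difference of 0.02, against 0.05 with all arrays, and Macroh2a2 differed by -0.13. None of the 9 had an unadjusted limma p under 0.05.

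Of 31 S phase and DNA replication genes, 28 were higher and 3 lower in mean in Hif1a-/- cells, where 61.4% of all genes were higher. The median difference was 0.10, and none had an unadjusted limma p under 0.05. The replication licensing genes Cdc6, Orc6 and Mcm2 differed by 0.22, 0.27 and 0.18, and without WT replicate 1 by 0.29, 0.11 and 0.01. The S phase list lay at 0.20 and -0.09 on Hif1a-/- replicates 1 and 2 and at -0.19 and 0.07 on WT replicates 1 and 2, each value being the median over the list of the log2 value minus the gene's mean. The H4 genes lay at 0.04 on both Hif1a-/- arrays, and at -0.12 and 0.05 on WT replicates 1 and 2. WT replicate 1 was thus the lowest array for both lists, while the spread between the Hif1a-/- arrays was seen in the S phase list and not in H4. Without WT replicate 1 the S phase median difference was -0.0088, and without Hif1a-/- replicate 1 it was -0.037.

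**Figure D3:**
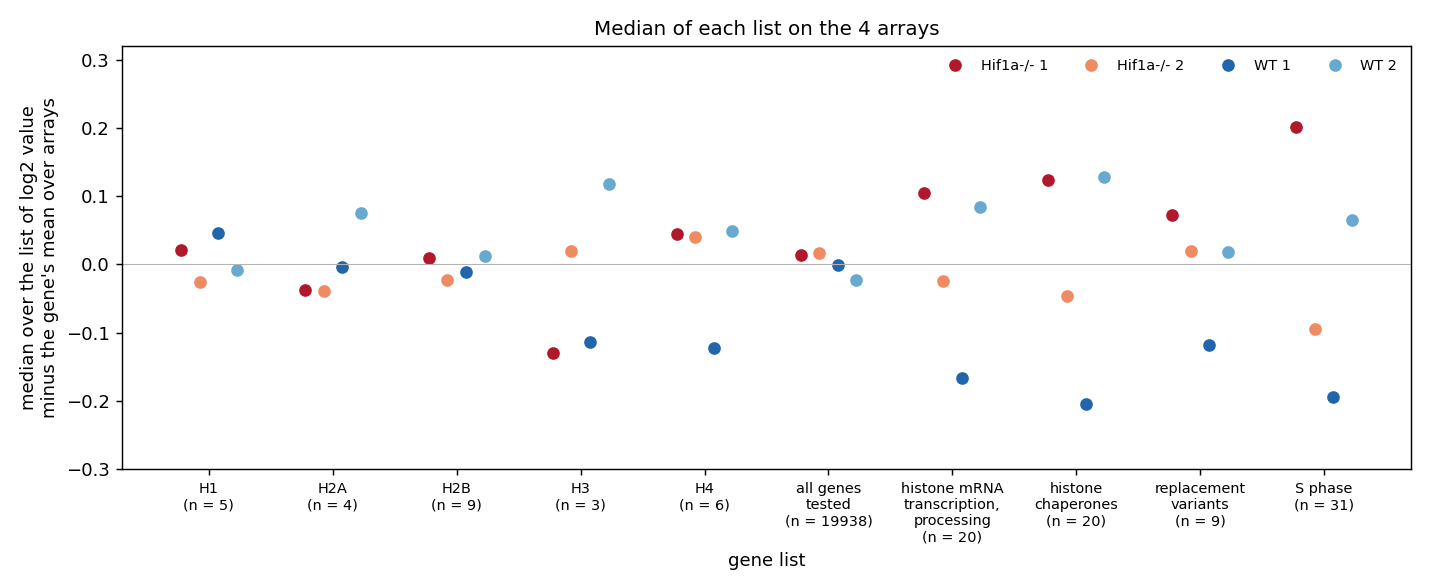
Median over each gene list of the log2 value minus the gene's mean over the arrays, for the 5 histone classes, all genes tested and 4 related lists (points, Hif1a-/- arrays left of WT arrays). WT replicate 1 is lowest for H4, at -0.12, and for the S phase list, at -0.19, and Hif1a-/- replicate 1 is highest for the S phase list, at 0.20.

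Markers of more mature cells also set the arrays apart. The 10 granulocyte and monocyte markers lay at a median of 0.07 and -0.08 on the Hif1a-/- arrays and at 0.62 and -0.66 on WT replicates 1 and 2. A higher mean in Hif1a-/- cells was seen for 5 of the 10. Between the WT arrays 3 of the 10 went the other way. In Elane, Mpo and Csf1r WT replicate 2 was the higher, by 0.34, 0.70 and 0.36. The 7 measured erythroid markers lay at 0.53 and 0.07 on the Hif1a-/- arrays and at -0.16 and -0.30 on the WT arrays. Of these, 7 of 7 were higher in mean, beside 61.4% of all genes. An unadjusted limma p under 0.05 was reached by 5 of 7, beside 1.68% of all genes. The 7 mast cell and basophil markers lay at -0.41 and -0.01 on the Hif1a-/- arrays and at 0.18 and 0.15 on the WT arrays. Of these, 7 of 7 were lower in mean, and 2 of 7 had an unadjusted limma p under 0.05, beside the same 1.68%. The 5 measured lymphoid markers lay at 0.05 and -0.28 on the Hif1a-/- arrays and at 0.84 and -0.22 on WT replicates 1 and 2, and the 5 megakaryocyte markers at -0.17 and 0.24 on the Hif1a-/- arrays and at -0.34 and 0.02 on WT replicates 1 and 2. None of these markers passed the adjusted threshold. In bulk samples a change in the share of such cells and a change in RNA per cell cannot be told apart. The part of these markers in the histone values was not tested.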

How the data were processed

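RNA of 4 samples was hybridised to 1 Affymetrix array each. The authors deposited log2 expression values, made with Affymetrix Expression Console 1.1 and RMA per the submitters' processing notes. RMA corrects background, normalizes arrays by quantiles and summarises probes, so it draws dim and very bright differences together and removes changes in total RNA. Of 35556 probe sets, 21789 carried 1 symbol in the platform annotation, 1621 several, and 12146 were unnamed here. One set per gene, that of highest mean, left 19938 genes. All 27 histone symbols were in the RefSeq table, and 23 had a promoter there.

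The test was limma (version 3.58.1, run in R 4.3.3; lmFit, then eBayes) on genotype alone, with Benjamini-Hochberg adjustment over all genes and 2 residual and 4.46 prior degrees of freedom. The procedure was tested on simulated data. For a single value, exact permutation of these arrays gives a two-sided p of 0.333 at the least. The number of arrays limits the precision (median SE 0.14). List values are medians and counts, with no test. The genes named by rule besides the 27 were Hif1a, Kit, the other listed histone genes and the 3 of smallest p per related list. Ly6g and Itgam were named for the distance between their WT arrays, and Elane, Mpo and Csf1r for the opposite direction. Of 143 list entries, 132 were measured. Members and lists were chosen with earlier results of these data known. Alternatives were filters, other scalings, a floor, variance trends, other probe set rules, a replicate block and each array left out.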

Additional observations from a re-analysis of the deposited data

How the results depend on the processing

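No histone gene passed the adjusted threshold under any alternative but the fit without WT replicate 1, with 3. Genes past adjusted p 0.05 numbered 0, 1 with a variance trend, 2 with a robust trend and 47 with the replicate block (0 of the 27 histone genes), and 2 to 1442 with an array left out. Same-numbered arrays did not deviate together over all genes (correlation -0.0072), and the labels do not say what the number marks. Genes past unadjusted p 0.05 numbered 334, 216 and 129 after dropping genes under the 25th percentile and under the median, 627 with the floor and 94 to 3628 with an array left out; the histone count was then 0 to 3. That histone count exceeded 0 only in the fits without WT replicate 1 or without WT replicate 2. In both fits the count over all genes was also far above that with all arrays. Each holds a lone WT array and measures no spread among WT arrays, so its histone count allows no reading. Filters and a floor remove dim genes by construction: filters left 23 and 20 histone genes, and H2ac8, H3c7 and H3c15 lay wholly at the floor. For other moves the cause was not tested.

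Median differences became -0.013 (both filters) and -0.0064 (floor) for H2A, 0.011 for H1 and 0.041 for H2B after a second quantile normalization, -0.0083 for H2B with centred medians, and 0.016 for H3 and 0.055 for H4 with shared probe sets. At the floor the H3 median was 0 and the H1 median -0.0013. The shared sets added were those whose symbols all met the rule: the 10 of H3, the 6 of H4 and 1 of H1 and H2B. The H2A sets and the other H2B sets were left out, so the H1, H2A and H2B medians could not move. With shared sets, 15 of 44 features did not overlap (34.1%, beside 24.8% of all features), against 8 of 27 (29.6%) without them. The added sets share sequences and are not separate measurements. With an array left out, the medians ran from -0.065 to 0.0016 for H1, -0.11 to 0.0081 for H2A, -0.012 to 0.029 for H2B, -0.27 to 0.0014 for H3 and 0.0035 to 0.16 for H4, and 15 to 19 of 27 genes (55.6% to 70.4%) did not overlap, beside 50.1% to 75.3% of all genes, since 1 array against a pair overlaps less often by construction.

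Signs turned for H1f2 (0.029), H1f5 (0.011), H2ac15 (0.018) and H3c7 (-3.3e-05) after the second normalization, for H2bc9 (-0.0083) with centring and for H1f3 (0.029) with the floor. With an array left out, 12 of 27 genes kept their sign and 15 did not. Of the 12, 11 moved by over 1.5 times (the exception was H2bc14): 0.049 to 0.26 for H1f1, 0.011 to 0.065 for H2ac1, -0.19 to -0.07 for H2ac4, 0.078 to 0.17 for H2bc18, -0.17 to -0.023 for H2bc22, -0.15 to -0.012 for H2bc3, -0.54 to -0.072 for H2bc8, -0.56 to -0.035 for H3c15, 0.046 to 0.14 for H4c14, 0.033 to 0.25 for H4c3, 0.027 to 0.15 for H4c4. For those that turned, the ranges were -0.22 to 0.21 for H1f2, -0.13 to 0.073 for H1f3, -0.079 to 0.0015 for H1f5, -0.11 to 0.0016 for H1f6, -0.031 to 0.0052 for H2ac15, -0.77 to 0.082 for H2ac8, -0.00034 to 0.096 for H2bc1, -0.057 to 0.23 for H2bc21, -0.37 to 0.018 for H2bc4, -0.00445 to 0.0399 for H2bc9, -0.27 to 0.0014 for H3c4, -0.094 to 0.19 for H3c7, -0.0204 to 0.175 for H4c6, -0.025 to 0.29 for H4c8, -0.069 to 0.0395 for H4c9.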

Other observations

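Histone genes outside the symbol rule were measured too and were chosen after their values were seen. H2aw and H2bu2, of the small cluster once called Hist3, read 13.30 and 13.24 in Hif1a-/- cells and 13.07 and 13.34 in WT cells for H2aw, and 8.71 and 8.67 in Hif1a-/- cells and 8.88 and 8.72 in WT cells for H2bu2. The differences were 0.06 and -0.11 (unadjusted limma p 0.677 and 0.418), and only in H2bu2 did both Hif1a-/- arrays lie below both WT arrays. H4f16, the lone H4 gene once called Hist4h4, read 12.01 and 12.11 in Hif1a-/- cells and 12.03 and 12.08 in WT cells, without the low value of WT replicate 1 seen in 5 of 6 clustered H4 genes. The germ line linker histones H1f7 and H1f8 differed by -0.02 and 0.04.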
